A study of Drosophila melanogaster with 2 samples.

Results

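Of the 6294 peaks that the submitters retained for the insulator protein mod(mdg4), 6273 lay on the chromosome arms, and 693 of these (11.0%, exact 95% interval 10.3 to 11.8) were distal intronic peaks in long genes. A peak belonged to this set when its summit, the position of highest signal, lay more than 500 bp from every protein-coding start site, in no annotated exon, and inside a protein-coding gene of 50 kb or longer. The rule used positions only and no signal value. Chromatin was immunoprecipitated with an anti-GFP antibody from whole larvae of both sexes, wandering and in the third instar, of a transgenic Drosophila melanogaster line that expresses mod(mdg4) with GFP fused to its C terminus. The 2 samples were biological replicates, numbered 3 and 4, of 1 group, so the design held no comparison between conditions. Chromatin had been sonicated to 200 to 800 bp. The labels name mod(mdg4) in their antibody field and an anti-GFP antibody in their description, and the description is followed here. On that reading the peaks are those of the tagged protein, and the labels do not say which of the protein's isoforms carried the tag. In whole larvae, binding in fewer cells and weaker binding in each cell cannot be told apart.

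The protein mod(mdg4) carries a BTB domain, through which it pairs with itself and with other BTB proteins. One of its isoforms is a known partner of the zinc finger protein su(Hw) at the insulator of the gypsy retrotransposon, an element that blocks an enhancer when placed between it and a promoter. Long fly genes are mostly intron, and many of them encode transcription factors, signalling proteins and neuronal proteins that use several promoters and are read from enhancers inside their own introns.

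The site bound by su(Hw) is shown first, because among 13 motifs searched this one had the highest ratio between the set and the windows 1000 bp away, 11.2. With windows 2000 bp away the ratio was 9.33, below the 12.7 of the CTCF core. The site lay within 100 bp of the summit in 28 of the 693 distal intronic peaks (4.04%, exact 95% interval 2.70 to 5.79), beside 192 of the 6273 arm peaks of every class (3.06%). The windows centred 1000 bp to either side of the same summits held it in 5 of 1386 cases (0.361%), and all windows of the same length in the sequence open to the rule held it in 0.510%. Read backwards as a control for base composition, the motif was found in 0 of the 693 windows, which allows a share of up to 0.531%. The neighbouring windows held the reversed motif in only 1 of 1386 cases (0.0722%). A pattern that rare cannot decide on composition here. The centre of the site lay a median of 25 bp from the summit and within 50 bp of it in 21 of 28 peaks. Of the 28 sites, the 8 of highest signal on arms 2L, 3L, 3R and X are printed, each as 60 bases from the RefSeq genome, build dm6, read 5′ to 3′ on the strand that carries the site, with the site in capitals.
Eip75B, chr3L:17988260-17988319, plus strand: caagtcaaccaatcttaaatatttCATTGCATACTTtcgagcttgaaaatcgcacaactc
CG32816, chrX:361590-361649, plus strand: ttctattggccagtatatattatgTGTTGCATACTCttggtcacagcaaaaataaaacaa
heph, chr3R:31945783-31945842, plus strand: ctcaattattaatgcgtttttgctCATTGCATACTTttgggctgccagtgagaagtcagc
klar, chr3L:505820-505879, minus strand: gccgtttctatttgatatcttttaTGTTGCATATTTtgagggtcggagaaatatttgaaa
sick, chr2L:19887490-19887549, plus strand: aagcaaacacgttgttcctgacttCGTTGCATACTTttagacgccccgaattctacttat
Svil, chr3L:2485966-2486025, plus strand: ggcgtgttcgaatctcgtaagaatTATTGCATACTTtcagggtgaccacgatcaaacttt
CenG1A, chr2L:13842263-13842322, minus strand: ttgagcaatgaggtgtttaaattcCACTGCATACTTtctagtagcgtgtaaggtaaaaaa
cic, chr3R:20287017-20287076, minus strand: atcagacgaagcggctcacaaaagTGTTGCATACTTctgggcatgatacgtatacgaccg

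The core of the CTCF site, a motif of another insulator protein with zinc fingers, followed. It reads AG, then A or G, then G or T, then GGCGC, and it lay within 100 bp of the summit in 19 of 693 peaks (2.74%), against 7 of 1386 neighbouring windows (0.505%) and 0.385% of all windows open to the rule. In the replicates it lay in 15 of 661 peaks (2.27%) in replicate 3 and 18 of 598 (3.01%) in replicate 4. Its ratio to the windows 1000 bp away was 5.43, but 3.33 in replicate 3 and 5.14 in replicate 4, and with windows 2000 bp away it was 12.7. Read backwards it was also more frequent at the summits, at 6 of 693 (0.866%), than in the neighbouring windows, at 1 of 1386 (0.0722%). The peak in RapGAP1, which encodes a GTPase-activating protein for Rap1, was the strongest of the set and held the CTCF core. Those in Eip75B and klar held both the su(Hw) site and the CTCF core, and no other of the 693 did. Sequences are 57 bases with the core in capitals.
RapGAP1, chr2L:7535056-7535112, plus strand: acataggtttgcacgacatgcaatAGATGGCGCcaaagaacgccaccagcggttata
Eip75B, chr3L:17988321-17988377, plus strand: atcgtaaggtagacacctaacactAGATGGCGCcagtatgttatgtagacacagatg
klar, chr3L:505876-505932, plus strand: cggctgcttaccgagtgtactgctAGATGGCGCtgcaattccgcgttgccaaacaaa
Antp, chr3R:6912264-6912320, minus strand: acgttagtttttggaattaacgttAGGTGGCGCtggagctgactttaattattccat
Tet, chr3L:2852018-2852074, plus strand: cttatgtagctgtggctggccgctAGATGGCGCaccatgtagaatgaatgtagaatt
Eip74EF, chr3L:17597099-17597155, plus strand: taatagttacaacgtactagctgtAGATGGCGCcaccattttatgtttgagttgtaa

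The 15 distal intronic peaks of highest signal lay in 15 different genes. The signal is the submitters' own value per peak, and it is used here only to rank and describe peaks within a list. The peak in RapGAP1 (chr2L:7534860-7535375) had a signal of 1777 in the thresholded list, 1044 in the list of replicate 3 and 746 in that of replicate 4, places 28 and 30 in those lists. Next came a peak in the first of 30 introns of shot, which encodes a spectraplakin that links actin to microtubules, with signals of 1601 in the thresholded list, 934 in replicate 3 and 668 in replicate 4. The peak in Pgant9, a gene for an enzyme that attaches sugar to mucin-type proteins, had signals of 1547, 887 and 655 in the same order of lists. In ush, which encodes a zinc finger partner of GATA factors, a peak 1369 bp from the nearest start site had signals of 1542, 992 and 532. All 4 ranked among the strongest 16 arm peaks of any class.

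Further down the ranking, the strongest peak of Eip75B (chr3L:17988142-17988492), a gene for a nuclear receptor induced by ecdysone, had a signal of 1187 in the thresholded list, 646 in replicate 3 and 540 in replicate 4. It lay 11512 bp from the nearest start site. The peak in pnt, which encodes an ETS transcription factor of the EGF receptor pathway, had signals of 1175, 698 and 484. In DIP-alpha, a gene for an immunoglobulin-domain protein of neurons, a peak 994 bp from a start site and also inside the shorter gene ppk8 had signals of 1134, 638 and 502. The remaining 8 peaks of the first 15 lay in qin, CG33158, CG32816, heph, klar, btsz, tkv and Tlk, with signals between 868 and 999 in the thresholded list. Each of these 15 peaks overlapped one of the strongest peaks of each replicate.

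Signal in the set as a whole was modest. The median was 163 in the thresholded list (quartiles 135 and 236), against 174 for distal intronic peaks of shorter genes, 191 for distal peaks between genes and 199 for promoter peaks. When the rule was applied to the strongest 6294 peaks of each replicate, it found 661 peaks in replicate 3 and 598 in replicate 4. Their median signal was 103.6 in replicate 3, against 106 in shorter-gene introns, 119 between genes and 123 at promoters. In replicate 4 the median was 76.6, against 80.3 in shorter-gene introns, 87.4 between genes and 88.6 at promoters. The long-gene introns were lowest in all 3 lists, but the quartile ranges overlapped widely. Against all other distal peaks outside exons, the median differed by -7.41 in replicate 3 and by -6.23 in replicate 4, a mean of -6.82 ± 0.837 (SD, n = 2). An exact sign-flip permutation test over the 2 replicates cannot give a two-sided p below 0.5, so this and the other differences between classes are described without a test.

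**Figure D1:**
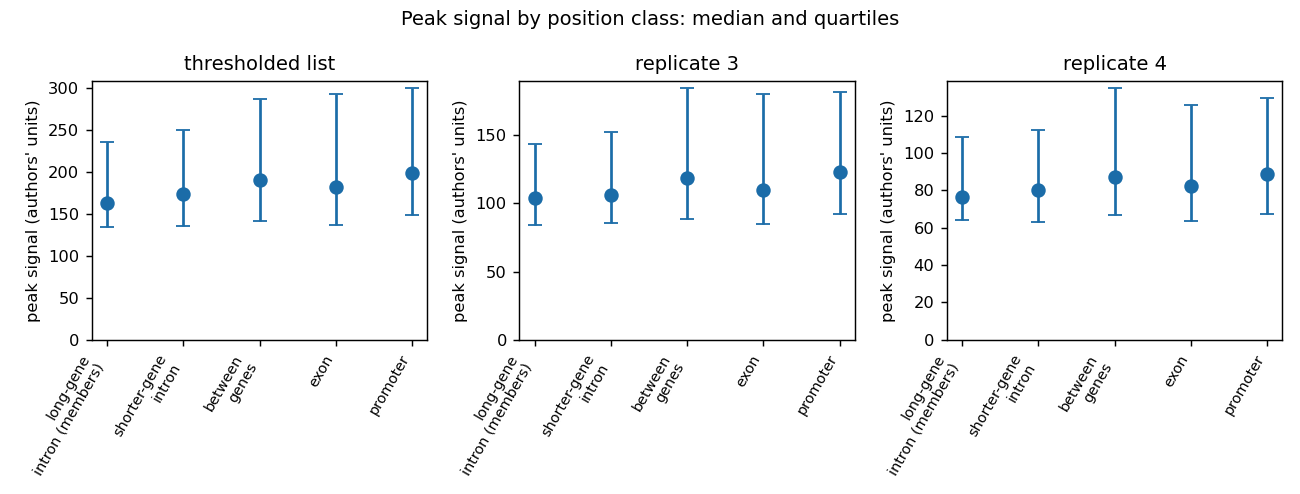
Peak signal in the submitters' units (vertical axis, from 0) by position class in the thresholded list and in the strongest peaks of replicate 3 and replicate 4; points are medians and bars run between the quartiles. The long-gene intron peaks have the lowest median in each panel (163, 103.6 and 76.6), with quartile ranges that overlap those of the other classes.

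Most peaks of the set were found in both replicates. The thresholded list itself derives from both, so this overlap follows in part from how the peaks were chosen. The same holds for the other counts of peaks strong in both replicates. Of the 693, 441 (63.6%, exact 95% interval 59.9 to 67.2) overlapped one of the strongest 6294 peaks of each replicate, against 4440 of all 6273 arm peaks (70.8%). A further 232 overlapped a strong peak of 1 replicate and 20 of neither, where an overlap of 1 bp was enough. The share was 66.0% for shorter-gene introns, 71.0% between genes and 75.4% at promoters. Replicate 3 accounted for more of the set, with 86.0% of the peaks overlapping its strongest list, against 74.7% for replicate 4. After each replicate was scaled to its median, the 2 signals were within 2-fold of each other for 89.7% of the peaks, and their Spearman correlation across peaks was 0.54, as a description over peaks that share the same 2 libraries. Neighbouring peaks can fall on a single wide peak of a replicate, as happened for 64 of the set in replicate 3 and 62 in replicate 4.

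Sequence open to the rule, meaning the intronic bases of long genes that lay outside exons and away from start sites, made up 23.0 Mb, or 17.2% of the arm sequence. The set had 30.1 peaks per Mb there, and the strongest peaks of the replicates 27.4 ± 1.94 per Mb (SD, n = 2). The introns of shorter genes had 58.8 per Mb in the thresholded list and 57.4 ± 2.41 in the replicates, and the sequence between genes had 30.7 and 28.8 ± 0.781. Per base, long-gene introns therefore held fewer peaks than shorter-gene introns in both replicates. They also held fewer than the sequence between genes in each, by a smaller margin, with 28.7 per Mb against 29.4 in replicate 3 and 26.0 against 28.3 in replicate 4. The open sequence includes 1795 kb in Myo81F, 631 in Pzl, 402 in lovit, 348 in DIP-lambda and 335 in CG17684, all without a peak. Leaving these genes out would raise the density of long-gene introns, but that density was not computed. Long genes were also divided into 4 classes by open sequence. The class with the most, which includes these genes, had 1.66 peaks per 100 kb. The other classes had 6.02, 3.90 and 3.87 per 100 kb, from the least open sequence upward. The smaller margin is therefore not a trait of long genes at large. Within the set, the density was 37.7 per Mb on arm 2L, 34.8 on 2R, 31.7 on 3L, 30.2 on X and 22.1 on 3R. The value for 3R includes the open sequence of Myo81F and Pzl, which both lie on that arm. Chromosome 4 has 0.0206 Mb of such sequence and held no peak of the set.

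The peaks were spread unevenly over the 307 long genes. A total of 165 genes (53.7%, exact 95% interval 48.0 to 59.4) held at least 1 peak of the set, as did 165 in replicate 3 and 148 (48.2%) in replicate 4. At least 5 peaks lay in each of 62 genes, which together held 478 of the 693, and at least 10 in each of 12 genes. The 10 genes with the most peaks contained 150 (21.6%) in 3.82% of the open sequence. The median length was 77.9 kb for genes with a peak and 72.5 kb for genes without. The 77 genes with the least open sequence had 6.02 peaks per 100 kb and the 77 with the most had 1.66, while the share of genes with a peak lay between 50.6% and 58.4% over the 4 classes of open length.

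The gene with the most peaks was Eip75B, with 22, and 18 in replicate 3 and 22 in replicate 4. Its peaks spanned signals from 113 to 1187 (median 178), 15 of them were strong in both replicates, and neighbours stood a median of 3017 bp apart. Tet, the fly member of the TET dioxygenase family, had 20 peaks, with 16 in replicate 3 and 17 in replicate 4, signals from 118 to 605 and a median spacing of 1776 bp. The corepressor gene sbb had 16 peaks, with 22 in replicate 3 and 16 in replicate 4, and 15 of its 16 were strong in both replicates. Eip74EF, an ETS factor gene that responds early to ecdysone, had 15 peaks, with 14 in replicate 3 and 13 in replicate 4. These 4 genes thus ranked high in the replicates as well as in the thresholded list.

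EcR, which encodes the ecdysone receptor, had 14 peaks in the thresholded list and 14 in each replicate, the strongest at 735. The coactivator gene tai, whose product works with that receptor, had 13 peaks, with 9 in replicate 3 and 12 in replicate 4. Other long genes known from the ecdysone response, named after their values were seen, had fewer, with 5 in br, 4 in Eip63E, 3 in ftz-f1 and 1 in Eip93F. Tlk, a gene for a kinase of the Tousled family, had 14 peaks, with 14 in replicate 3 and 11 in replicate 4, at 33.0 per 100 kb of open sequence. The transcription factor gene shn, of the Dpp pathway, had 13, with 14 in replicate 3 and 10 in replicate 4. The other genes among the first 15 were CG1677 with 12 peaks, kirre and bun with 11 each, heca with 10, and tkv, CG12535 and jing with 9 each. Of these, kirre, an immunoglobulin protein of myoblast fusion, is 394 kb long and had only 3.56 peaks per 100 kb, against 23.9 for tkv, a Dpp receptor gene of 52.4 kb.

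**Figure D2:**
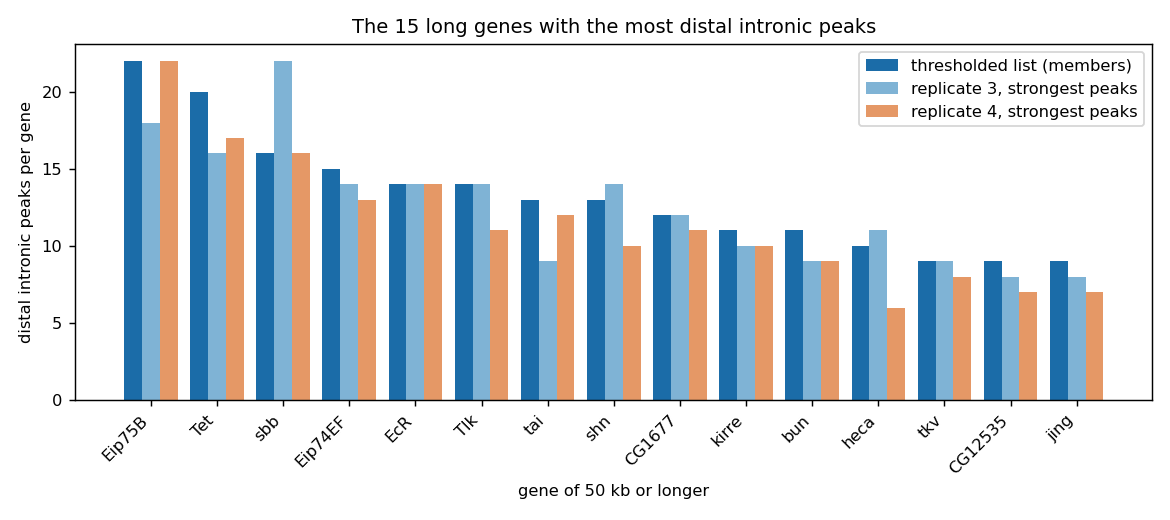
Number of distal intronic peaks (vertical axis, from 0) in each of the 15 long genes that hold the most, in the thresholded list and among the strongest peaks of replicate 3 and of replicate 4. Eip75B leads with 22, 18 and 22, and in sbb replicate 3 has more peaks (22) than the thresholded list (16).

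**Figure D3:**
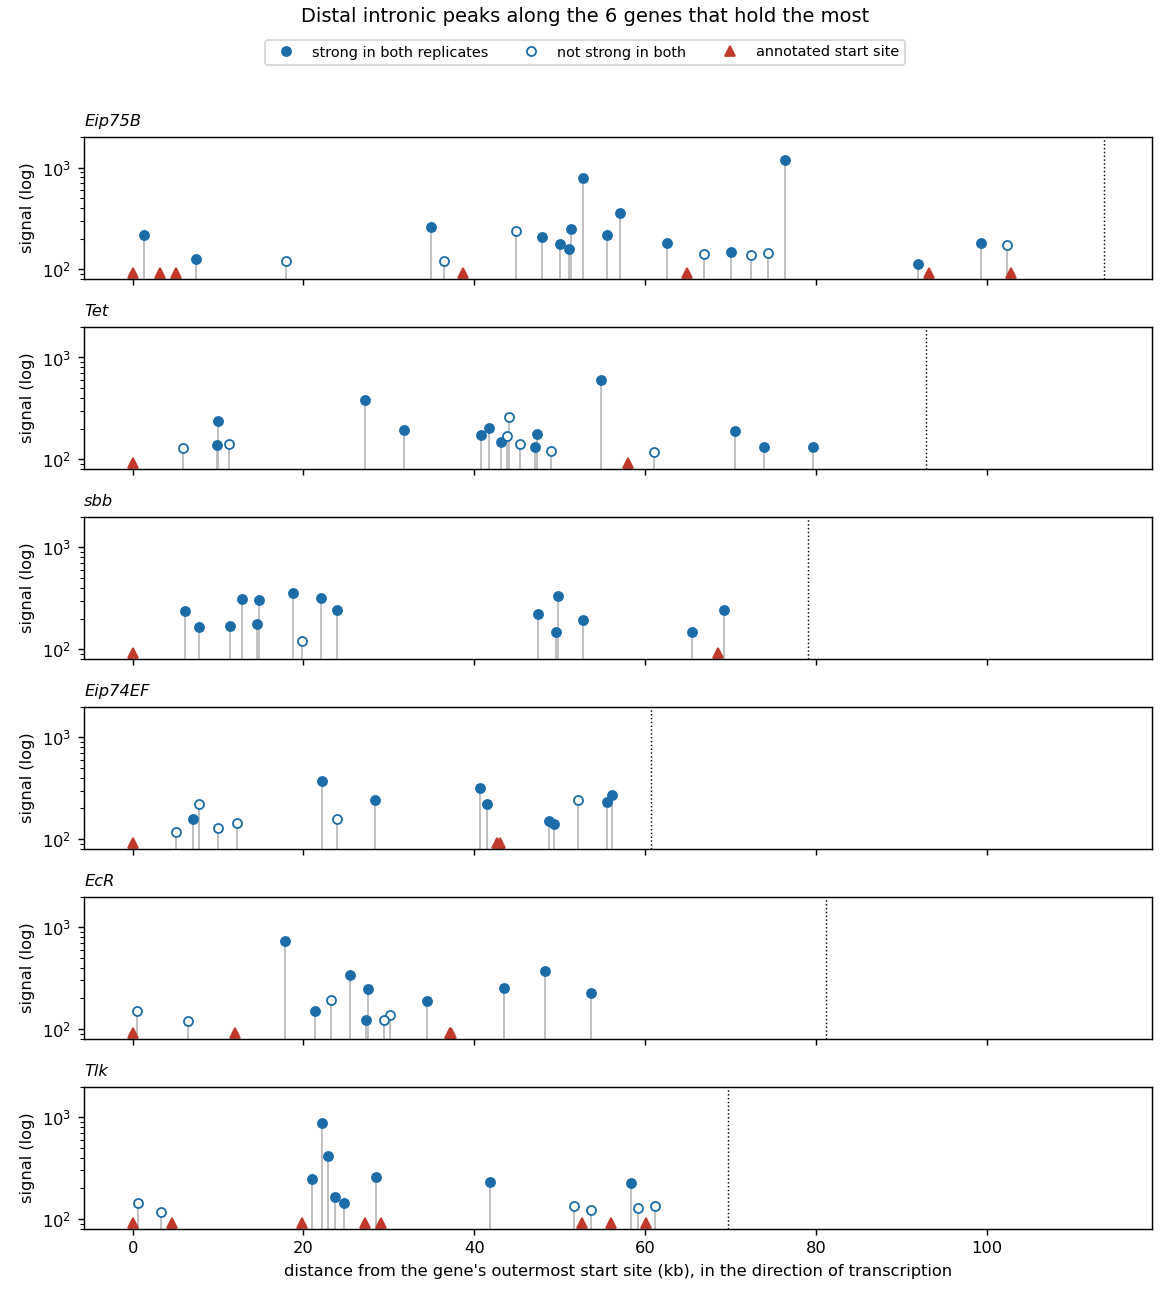
Signal of each distal intronic peak (vertical log axis, submitters' units) against its distance in kb from the gene's outermost start site, for the 6 genes with the most peaks. Filled circles are peaks strong in both replicates, open circles the others, triangles annotated start sites and dotted lines the gene ends; the peaks lie at many distances along each gene, and the strongest peak in these 6 genes is the one at 1187 in Eip75B.

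The 5 longest genes without a peak of the set were the following. Myo81F (1966 kb), Pzl (709 kb), lovit (434 kb), CG17684 (396 kb) and DIP-lambda (379 kb) held 0 in the thresholded list and 0 in either replicate. Even in the pooled list of 29999 peaks and background regions that the submitters made before thresholding, Myo81F, Pzl and CG17684 had 0, lovit had 1 and DIP-lambda 2. Across all 142 long genes without a peak of the set, 11 had no entry in that pooled list either. The lists hold no read counts, so absence of binding and missing coverage in these genes cannot be told apart.

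Which long genes carried peaks was then described by 7 lists of gene families. The lists were drawn with earlier results of these data known, so their shares and intervals are a description only. Transcription factor genes held peaks most densely. At least 1 peak lay in 30 of 35 genes (85.7%, exact 95% interval 69.7 to 95.2), against 53.7% of all long genes. In each replicate 29 of these 35 genes held a peak. They had 9.27 peaks per 100 kb of open sequence, against 3.01 over all long genes, and a median of 5 per gene, against 1. Among them Eip75B, sbb and Eip74EF had the most, while Cph and lov had 0. Developmental signalling genes held a peak in a similar share, 11 of 12 (91.7%, 61.5 to 99.8), with 10 of 12 in each replicate. Their density was lower than that of transcription factor genes, at 6.55 peaks per 100 kb. Their leaders were tkv with 9, mam, which encodes a Notch coactivator, with 7 and the Wingless receptor gene fz2 with 6, and Pvf3, a growth factor gene, had 0.

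Ion channel and neurotransmitter receptor genes stood at the other end. Of 17 such genes, 0 held a distal intronic peak in the thresholded list, in replicate 3 or in replicate 4, and 0 of 17 allows a share of up to 19.5% (exact 95% interval). The serotonin receptor genes 5-HT1A and 5-HT2B were among them. The 17 genes had 42 regions of the pooled unthresholded list, or 4.52 per 100 kb, against 20.9 over all long genes. Neuronal adhesion and guidance genes held peaks in 17 of 38 cases (44.7%, 28.6 to 61.7, an interval that holds the 53.7% of all long genes), at 1.41 per 100 kb. In that list kirre had 11 peaks, ed 7 and beat-Ib 6, whereas beat-IIIc and beat-VI had 0.

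The other 3 lists had wide intervals, each holding the 53.7% of all long genes. RNA-binding protein genes held peaks in 9 of 14 cases, at 2.72 per 100 kb, with heph, a polypyrimidine tract binding protein gene, and Syp at 8 each and shep at 7, and with bru1 and bru2 at 0. Cytoskeleton and muscle genes held peaks in 8 of 13 cases, at 1.37 per 100 kb of their summed open sequence. That sum was 2414 kb although the median gene length was 77.9 kb, so very long genes weigh heavily in this density. Their median per gene was higher, at 2.94 per 100 kb, against 1.14 over all long genes. Leaders were pyd and sdt with 7 each and shot with 6, while Ank2 and bt had 0. Genes of intracellular signalling enzymes held peaks in 5 of 8 cases, at 2.08 per 100 kb. The count was 5 of 8 in replicate 3 and 3 of 8 in replicate 4. Among them Pde11 had 4, RapGAP1 and dnc 3, and Dgk and Pde1c 0. The 170 long genes in no list held peaks in 85 cases (50%).

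**Figure D4:**
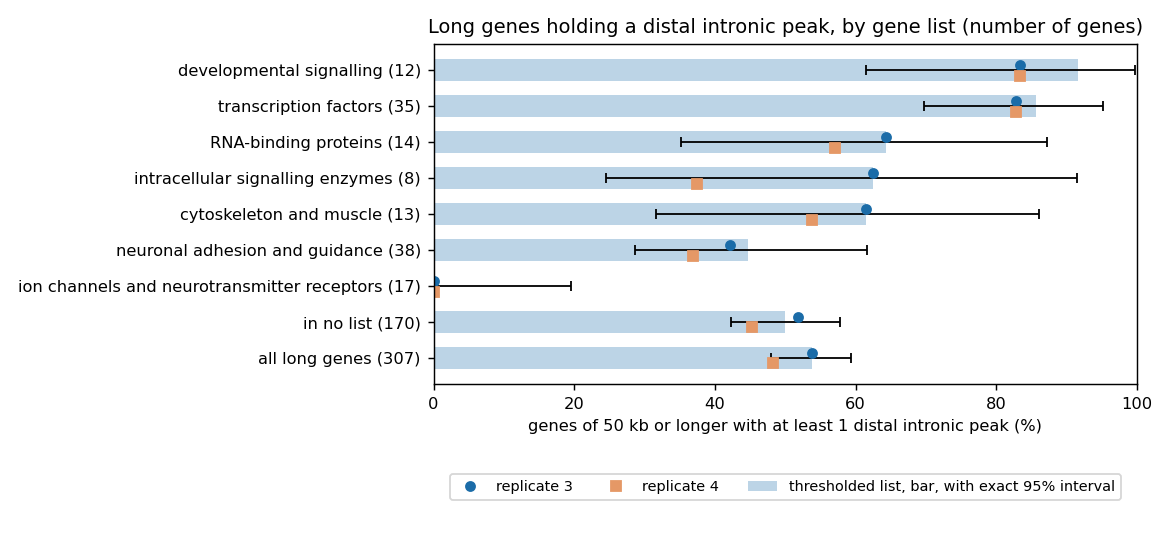
Percentage of genes of 50 kb or longer with at least 1 distal intronic peak (horizontal axis) for each gene list, with the number of genes in brackets; bars are the thresholded list with exact 95% intervals, circles replicate 3 and squares replicate 4. Developmental signalling (91.7%) and transcription factor genes (85.7%) lie above all long genes (53.7%), and ion channel and receptor genes are at 0 in all 3 lists.

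Long genes with distal intronic peaks also tended to have a mod(mdg4) peak at a start site of their own. Such a promoter peak was present at 95 of the 165 genes with a distal intronic peak (57.6%, exact 95% interval 49.7 to 65.2), against 22 of the 142 without (15.5%, 9.97 to 22.5), and at 38.1% of all 307. Genes with a distal intronic peak had a median of 3 annotated start sites, against 1 for the others. Within genes of 1 or 2 start sites the shares were 37.0% with and 12.4% without, and within genes of 3 to 5 they were 74.2% and 27.3%. Transcription factor genes had a promoter peak in 62.9% of cases, neuronal adhesion and guidance genes in 26.3%, and ion channel and receptor genes in 5.88%.

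The peaks lay nearer to start sites than the open sequence of all 307 long genes did. That sequence included the 142 genes without a peak of the set, which had a median of 1 start site, against 3 for the others. Open sequence of the genes with peaks was not taken separately, so the choice of gene and the position within it are mixed here. The median distance to the nearest start site was 5499 bp, and 5567 and 5563 bp in replicates 3 and 4, against 13306 bp for positions taken every 500 bp of open sequence. Within 2000 bp of a start site were 177 peaks (25.5%), with 25.7% in replicate 3 and 24.1% in replicate 4, against 8.78% of the open sequence. The first intron held 233 peaks (33.6%, exact 95% interval 30.1 to 37.3), and 33.9% and 33.6% in the replicates, against 20.2% of the open sequence. The third intron or a later one held 37.1%, against 52.7%. The median distance to the nearest exon was 2360 bp, against 4118 bp.

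Many peaks of the set had close neighbours. Some neighbours fell on a single wide peak of a replicate, as given above, and they count separately here and in the counts per gene. Another peak of the set lay within 2000 bp for 259 (37.4%) and within 1000 bp for 152 (21.9%), and the median distance to the nearest was 3690 bp. Counting peaks of any class, the nearest neighbour was a median of 2348 bp away, against 1809 bp for shorter-gene introns and 3558 bp for peaks between genes. Genes with 8 or more peaks of the set, 281 peaks in all, had a median signal of 176, and 69.0% of their peaks were strong in both replicates. Peaks in genes with only 1 or 2 had a median of 157, and 53.8% were strong in both.

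Sequence at the summits differed with signal. A su(Hw) site accompanied 9 of the 50 strongest peaks of the set (18.0%, exact 95% interval 8.58 to 31.4), in 3 of the next 50 (6.00%) and in 5 of the 293 weakest (1.71%). The same split in the replicates gave 7 of 50 in replicate 3 and 10 of 50 in replicate 4, against 2.95% and 2.37% of their weaker peaks. Peaks with a site had a median signal of 257, against 162 without, and 23 of 28 were strong in both replicates. In distal peaks between genes the site was more frequent, at 6.91%, and in shorter-gene introns less so, at 2.53%. The CTCF core had the same order, with 2.74% in the set, 5.30% between genes and 1.33% in shorter-gene introns. It lay in 5 of the 50 strongest peaks of the set and 2.18% of the others. The rise with signal was not particular to the set. Between genes, the su(Hw) site lay in 14 of the 50 strongest peaks and 5.86% of the others, the CTCF core in 6 and 4.97%. In shorter-gene introns the su(Hw) site lay in 5 of the 50 strongest and 2.28% of the others, the CTCF core in 3 and 1.17%.

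**Figure D5:**
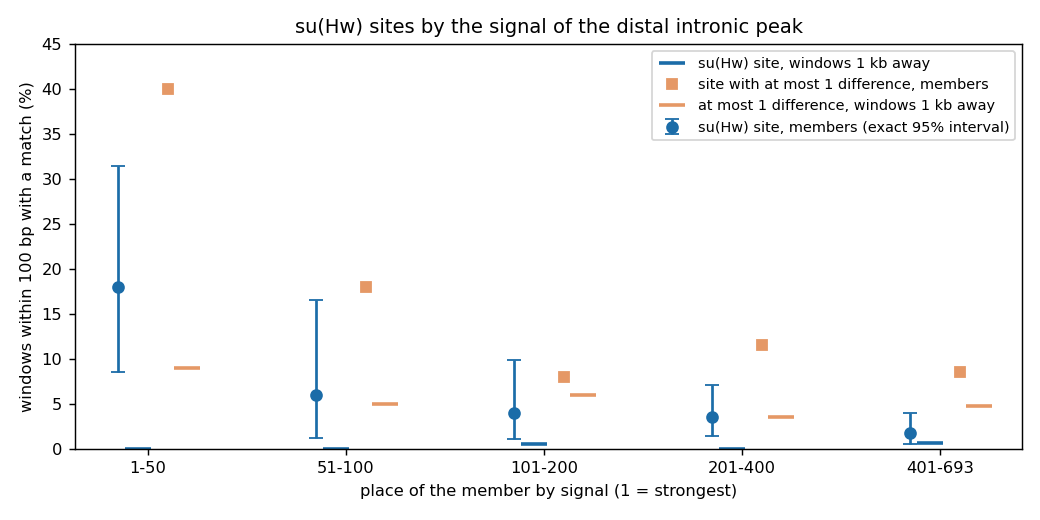
Percentage of windows within 100 bp of a summit that hold a su(Hw) site (vertical axis) for distal intronic peaks grouped by place in signal (horizontal axis, 1 is the strongest), with an exact match (circles, exact 95% interval) or with at most 1 differing letter (squares); short lines give the windows 1 kb away. Exact sites are at 18.0% in the strongest 50 and 1.71% in the weakest group, and the windows 1 kb from the strongest 50 hold none.

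The other motifs, several of them known from promoters, were also searched on both strands. The DRE, TATCGATA, bound by the promoter factor DREF, was present in 3 of 693 windows (0.433%), against 0.577% of the neighbouring windows, 0.420% of all open windows and 6.60% of promoter peaks. The core promoter elements Motif 1 and Motif 6 were present in 0 and 1 of 693, against 0.0376% and 0.234% of all open windows. The BEAF-32 element CGATA, part of every DRE, stood at 20.2%, against 22.2% next to the peaks, 19.4% of all open windows and 36.5% at promoters. The GAGA repeat GAGAGAG, read by the GAGA factor, was present in 6.06%, against 4.55% next to the peaks. It was present in 2.80% of all open windows and 9.37% of promoter peaks. It lay in 21 of 281 peaks (7.47%) in genes with 8 or more. In genes with 1 or 2 it lay in 2 of 93 (2.15%), a share that rests on few peaks. The shorter su(Hw) core, TGCATA followed by C or T, is part of every su(Hw) site and was found in 12.4%, against 7.22% next to the peaks and 8.18% of all open windows. The TATA box, C or G before TATAAA, was at 10.5%, against 8.23% next to the peaks, 8.35% of open windows and 10.9% at promoters. The Pho core GCCATNT, from the Polycomb recruiter Pho, was at 12.1%, against 12.7% and 13.9%. The remaining 3 were rare: the E-box CACGTG at 1.44%, against 2.45% and 2.25%, the AP-1 site, TGA and TCA around C or G, at 2.31%, against 1.66% and 1.60%, and the Zelda site CAGGTAG at 0.577%, against 0.505% and 0.859%.

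The summits were richer in A and T than their surroundings. The windows of the set had a mean GC content of 37.2%, against 40.5% for the windows 1 kb away, and it was lower than in those windows for 432 of 693 peaks (62.3%). In replicate 3 the means were 36.8% and 40.7%, and in replicate 4 they were 38.5% and 40.7%. Peaks of the other classes had like values, 37.5% in shorter-gene introns, 36.7% between genes and 37.6% at promoters, with neighbouring windows at 41.2%, 42.0% and 42.9%.

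Peaks on either side of the limits of the rule are given as a description. Just inside the distance limit lay a peak of Eip75B at 514 bp from a start site with a signal of 173 and a pair in bun at 516 and 520 bp with signals of 118 and 520. Just outside were peaks in CG9380 at 490 bp with a signal of 343 and in Sdc at 475 bp with 168. The shortest gene of the set was ab, at 50.4 kb, with peaks of 310 and 173, and the longest gene below the limit with such peaks was Dyrk2, at 49.6 kb, with peaks of 136 and 218. The 50.7 kb nuclear receptor gene ftz-f1 counted as long by a similarly small margin.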

How the data were processed

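Chromatin immunoprecipitation with sequencing was done on 2 biological replicates of 1 group. The deposited peak lists give a signal per peak, the authors' own value, and the offset of the summit, a whole number of bases in the deposited files; the thresholded list and the pooled list derive from both replicates, per the labels. Neither the labels nor the files used here name the peak caller, its threshold or the aligner. The lists hold no counts, so depth is unknown, and exact (Clopper-Pearson) 95% intervals cover only how many peaks or genes were counted. Lists on build dm3 were not used. No input or untagged control was analysed here.

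Summits on build dm6 were placed in genes with the Ensembl release 115 annotation (BDGP6), transposable element annotations counting as exons, with Python 3.11.15, NumPy 2.4.6, SciPy 1.17.1, pandas 2.3.3 and matplotlib 3.10.9. Each replicate's list was kept to its strongest 6294 peaks. Motifs were searched within 100 bp of summits and of positions 1000 bp away; the placement and search code was tested on simulated data. The gene lists hold 832 symbols, of which 13 had no match, and 137 long genes fell in a list. Genes named are the 15 with most peaks, the hosts of the 15 strongest peaks, up to 3 leaders and up to 2 genes without peaks per list, the 5 longest without peaks, and the strongest with a su(Hw) site or CTCF core. Members, lists and motifs were chosen with earlier results of these data known.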

Additional observations from a re-analysis of the deposited data

How the results depend on the processing

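The alternatives were another distance from start sites, another gene length, protein-coding exons only, the stronger part of the list, peaks strong in both replicates, and each replicate alone. The direction of the 2 differences between classes held in all of them. Long-gene introns had fewer peaks per Mb and lower median signal than other distal sequence outside exons. That other sequence pooled shorter-gene introns, at 58.8 peaks per Mb in the thresholded list, with sequence between genes, at 30.7. No alternative left out Myo81F, Pzl, lovit, CG17684 and DIP-lambda, whose open sequence without a peak lowers each density. The share of arm peaks was 17.0% with genes of 30 kb or longer and 3.35% with genes of 100 kb or longer, against 11.0% with 50 kb. The density relative to other distal sequence outside exons was 0.706. It was 0.586 in the stronger part of the list, 0.660 for peaks strong in both replicates, 0.658 and 0.757 at 250 and 1000 bp from starts, and 0.768 and 0.416 with genes of 30 and 100 kb. Each replicate alone gave 0.651 to 0.683. The difference in median signal was -17.1. It was -10.3 in the stronger part, -13.1 for peaks strong in both, -14.9 and -15.4 at 250 and 1000 bp, -13.7 and -15.2 with genes of 30 and 100 kb, and -18.0 with protein-coding exons only. Each replicate alone, on its own scale, gave -7.41 to -6.23. The share of long genes with a peak lay within 1.5 times its value in all alternatives, and without either replicate it was 48.2% to 53.7%. The share with a su(Hw) site, 4.04%, was 6.59% in the stronger part and 3.78% to 3.85% in each replicate. Its ratio to neighbouring windows, 11.2, was 36.0 in the stronger part, 20 with genes of 100 kb and 21.0 with 50 bp windows, and 9.20 to 16.7 in each replicate, from few neighbouring windows with a site. The share strong in both replicates, 63.6%, was 52.8% when at least 0.5 of both peaks had to overlap. It was 96.0% in the stronger part, which was itself ranked by a signal derived from both replicates. The cause of these shifts was not tested. The ratio of the CTCF core to neighbouring windows, 5.43, was 8 with 50 bp windows, 3.33 with 200 bp windows, 12.7 with neighbouring windows 2000 bp away, and 3.33 to 5.14 in each replicate. Classes were compared within each replicate, and no paired analysis between groups was possible because the replicates form 1 group. With 2 replicates, the spread rests on a single difference, and the lists hold no counts.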

Other observations

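An 8-letter string was looked for without a motif in mind, after the values were seen. Among the 7198 strings in the windows of the 50 strongest distal intronic peaks in long genes, AAGTATGC on either strand had the largest surplus over the neighbouring windows, with 14 of 50 peaks (28%) against 2 of 100 windows. It overlaps the su(Hw) site. Since it was picked on these 50 peaks, their count is a description. In classes not used to pick it, the string lay in 9 of the 50 strongest peaks of shorter-gene introns, against 1 of 100 neighbouring windows, and in 24 of the 50 strongest peaks between genes, against 2 of 100. Peaks of the set that held the string without a full su(Hw) site included those in DIP-alpha, qin, Antp, a homeotic gene, and Bx, a LIM-domain factor gene. Their signals were 1134, 999, 749 and 499. Sequences are 56 bases of build dm6 with the string in capitals.
DIP-alpha, chrX:3570457-3570512, minus strand: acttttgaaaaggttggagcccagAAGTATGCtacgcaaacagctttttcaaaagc
qin, chr3R:18628720-18628775, plus strand: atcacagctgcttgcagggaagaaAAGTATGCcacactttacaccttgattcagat
Antp, chr3R:6912342-6912397, plus strand: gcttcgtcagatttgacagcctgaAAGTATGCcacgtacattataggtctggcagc
Bx, chrX:18520527-18520582, plus strand: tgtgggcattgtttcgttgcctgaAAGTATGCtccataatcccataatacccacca

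A further alternative, also chosen after the data were seen, allowed at most 1 letter to differ from the su(Hw) site. It was then found in 20 of the 50 strongest peaks of the set (40.0%), against 9 of 100 neighbouring windows, and in 25 of the 293 weakest (8.53%), against 4.78% of their neighbouring windows. Over all 693 peaks the share was 12.3%, against 4.91%.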
